A study of Mus musculus with 4 samples.

Results

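The score pc_markers (column pc_markers.Score1), 1 of 6 scores deposited for every spot, was followed across mouse draining lymph node over all 7271 spots of the 7271 in the spot table. It was read as a plasma cell marker score from its name and the subject of the series. The sources used here do not name the genes behind it, and the files used held no single genes, so the name could not be checked against plasma cell genes and no sequence could be tied to it. It has no true zero and its values can be negative, so differences are given and no ratios.

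The series asks where in a lymph node plasma cells arise from B cells of the germinal centre. Collection came 14 days after immunization of the mice and 3 days after their gavage began. Frozen tissue was cut at 10 µm, and 4 sections lying 50 µm apart in depth, called A, B, C and D, were placed on a Visium slide, whose spots carry barcodes that mark the position of each captured RNA. All sections formed 1 group with no control, and they shared 1 sample name and, in the spot table, section names ending in eYFP, which the sources used here do not explain. The sources used here do not state the immunogen, the gavaged agent, the genotype, the age or the number of animals. Sections A, B, C and D held 1650, 1876, 1858 and 1887 spots with medians of 7726.5, 10528, 3677.5 and 3836 UMIs per spot, where a UMI is a unique molecular identifier that counts 1 captured transcript. Of 3439 distinct spot barcodes, 2509 were used in 2 or more sections, because the barcode marks a place on the array and not a cell. Each section showed 2 separate pieces of tissue, called upper and lower here by their array row.

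Plasma cells are the antibody-secreting end stage of B cells, and they carry a greatly enlarged secretory apparatus. In a lymph node responding to antigen, B cells divide in the germinal centre dark zone, are selected in the light zone, and those that become plasma cells move to the medullary cords. There they lie among macrophages and stromal cells, and some leave through the efferent lymph. The T zone and the B cell follicles around the germinal centres normally hold few of them.

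The authors assigned every spot to 1 of 8 regions. These were Medulla, T zone, B zone, the germinal centre dark zone (DZ) and light zone (LZ), and the borders of the germinal centre with each neighbour (GC_Medulla Border, GC_T Border and GC_B Border). The sources used here do not say how regions were named. If expression entered the naming, differences in the score between regions are partly built in, and the weight below lies on spread, clumping and courses within regions. Several cells, of more than 1 type, can lie over a spot, and fewer plasma cells and less marker RNA per cell cannot be told apart. Medulla and GC_Medulla Border together are called the medulla side. Distances are steps from spot to adjacent spot on the array, whose hexagonal grid gives a spot up to 6 neighbours.

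The section was the unit of comparison throughout (n = 4). Values are means ± SD over sections, and each test flipped the signs of the 4 section values in every way (an exact permutation test, two-sided). The smallest p it can give is 2 of 16 sign assignments, so nothing could pass a threshold of 0.05, and the count of sections agreeing in direction stands in for a call. A difference with the same sign in 4 of 4 sections has this smallest p, and its adjusted p lay between 0.139 and 0.156, depending on the number of tests adjusted together. The sections are serial cuts of 1 sample, so SDs and p-values measure only the spread between sections, which may be technical.

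The score as a whole differed between sections before any region was considered. It averaged 0.219, 0.247, 0.182 and 0.187 in sections A to D. The more deeply read sections A and B had the higher averages and the wider spread over spots, with SDs of 0.0993 and 0.105 against 0.0814 and 0.0798 in C and D. For this reason each section was given its own limit for high spots, and every comparison was formed inside a section. Single spots ran from -0.0305 in section B to 0.724 in section C. Over all spots of a section the score went with lower depth, with Spearman's rho against UMIs of -0.410, -0.324, -0.160 and -0.183 in A, B, C and D. Inside the region Medulla the sign was the opposite, at 0.323, 0.198, 0.436 and 0.165. It was also positive in every section inside GC_Medulla Border, T zone and B zone, with mean rho of 0.497, 0.207 and 0.195. Inside the dark zone it was negative in every section, with a mean of -0.243.

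Spread inside the regions separated medulla, dark zone and the germinal centre border with the medulla from the rest of the node. In the region Medulla the SD of the score over spots was 0.121, 0.107, 0.101 and 0.0951 in sections A to D. In GC_Medulla Border it was 0.118, 0.119, 0.105 and 0.0950 in the same order. In the T zone, the region of T cells and dendritic cells, it was 0.0366, 0.0369, 0.0432 and 0.0410. Medulla was thus more spread than T zone in 4 of 4 sections, by 0.0667 ± 0.0137, and in 3 of 4 when scores were replaced by their percentile ranks within the section. The adjusted p of this exact permutation test was 0.156.

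The spread of the medulla ran upwards more than downwards. The lowest 5% of Medulla spots lay below 0.137, 0.223, 0.101 and 0.103 in sections A to D, and the lowest 5% of T zone spots below 0.158, 0.175, 0.110 and 0.117. Only in section B was the lower limit of Medulla the higher. The highest 5% lay above 0.489 ± 0.0787 in Medulla and above 0.269 ± 0.0230 in the T zone. A Medulla spot taken at random was higher than a T zone spot taken at random in 74.2%, 89.0%, 62.9% and 61.4% of pairs in sections A to D. The percent of Medulla spots that did not exceed the T zone median was 25.3, 7.72, 38.6 and 38.7 in sections A to D. The regions therefore overlapped widely, least in section B and most in sections C and D. At the other end, 46.9%, 68.9%, 33.1% and 33.6% of Medulla spots exceeded the 95th percentile of the T zone of their section. In the B zone 0.654% to 1.57% did so, and in the light zone 0%.

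Inside the germinal centre the 2 zones differed in spread. The dark zone, where germinal centre B cells divide, had SDs of 0.0874, 0.0878, 0.0743 and 0.0771 in sections A to D. The light zone, where B cells meet antigen on follicular dendritic cells, had 0.0345, 0.0402, 0.0343 and 0.0352. The dark zone was wider in 4 of 4 sections, by 0.0456 ± 0.00582. Its distribution had a long upper tail, with a skewness of 1.16 ± 0.212 against 0.860 ± 0.267 in Medulla. In section C the order was the opposite, at 1.18 in the dark zone and 1.22 in Medulla. The dark zone also held low spots. Its 5th percentile was 0.0595 ± 0.0109, close to the 0.0599 of the light zone, while its 95th percentile was 0.321 against 0.173. Above the 95th percentile of the T zone lay 10.4% ± 0.705 of dark zone spots, with 9.35% to 10.9% over sections. The spots beside the medulla side were the higher ones, with means of 0.226, 0.239, 0.171 and 0.177 at 1 step from it against 0.122, 0.145, 0.119 and 0.126 at 2 steps. Median UMIs of these dark zone spots were 9022.5, 11333.5, 4830 and 4538 at 1 step. At 2 steps they were 14958.5, 15719, 6712.5 and 7379, and the part of depth in the difference was not tested. The B zone, made of follicular B cells, was as narrow as the T zone, with an SD of 0.0416 ± 0.00293 against 0.0394 ± 0.00321.

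The region names accounted for 37.8%, 53.3%, 24.8% and 26.8% of the variance of the score over spots in sections A to D. The mean was 35.7% ± 13.1, so most of the spread in A, C and D lay inside regions. The same share was 77.1% ± 3.36 for Mo_GC_vs_Mem, whose name points to germinal centre against memory B cells, and 37.1% for the logarithm of UMIs. The share for percent of ribosomal counts was 52.0%.

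**Figure D1:**
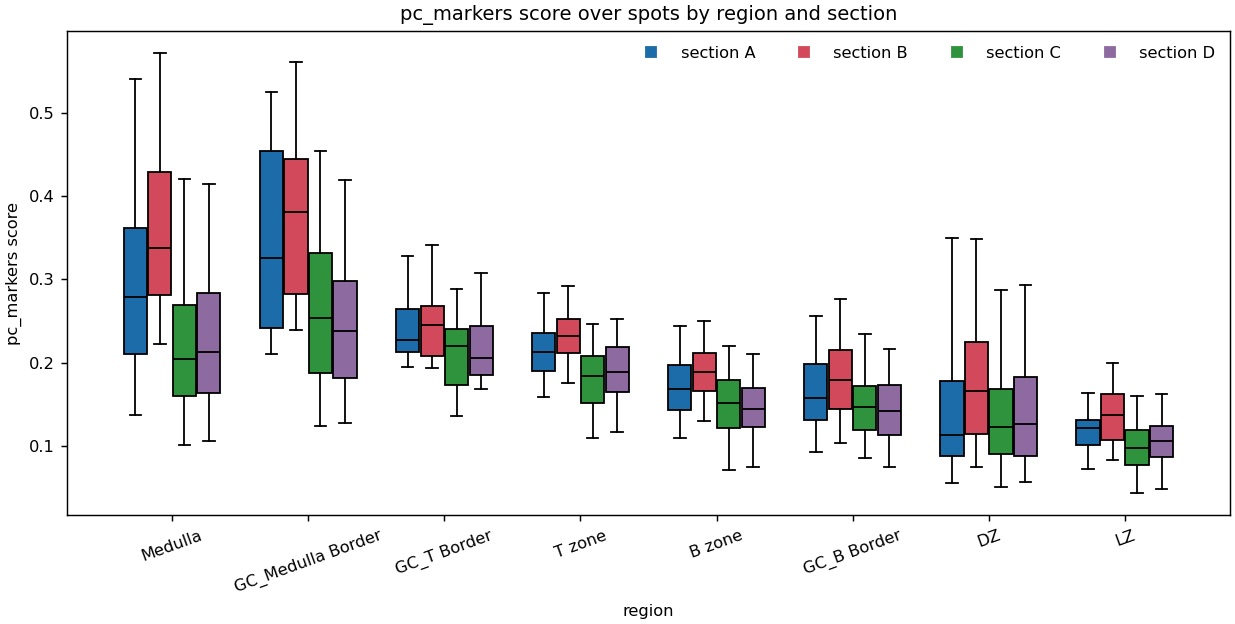
The pc_markers score by region and section, with boxes from the lower to the upper quartile, a line at the median and whiskers out to the last spots within the 5th and 95th percentiles. In each section the whiskers of Medulla and GC_Medulla Border reach highest, the dark zone (DZ) reaches high from a low median, and the light zone (LZ) and B zone stay narrow.

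The score was clumped in space. Over pairs of adjacent spots its Pearson r was 0.630, 0.733, 0.524 and 0.569 in sections A to D. Over pairs inside 1 region, after the mean of that region was subtracted, r was 0.449, 0.495, 0.395 and 0.434. These correlations are over 14600 same-region pairs in all, which share a library, and they are descriptions with no p.

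Clumping was not equal among regions. Within Medulla the adjacent-pair r was 0.483, 0.543, 0.464 and 0.492 in sections A to D. Within the T zone it was 0.245, 0.193, 0.159 and 0.214, and within the B zone 0.299, 0.346, 0.229 and 0.219. Medulla thus exceeded T zone by 0.293 ± 0.0473 and B zone by 0.222 ± 0.0396, each in 4 of 4 sections. The dark zone averaged 0.283 ± 0.111 and the light zone 0.260 ± 0.148, with the light zone running from 0.0920 in section C to 0.454 in B. GC_Medulla Border had an r of 0.326, 0.414, 0.437 and 0.582, from 183 pairs in all sections together. The other borders of the germinal centre varied more, with GC_B Border at 0.575, 0.524, 0.197 and 0.383 and GC_T Border at 0.149, 0.464, 0.254 and 0.501.

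The patches of the medulla were a few steps across. Within Medulla r went from 0.495 at 1 step to 0.289 at 2 steps, 0.164 at 3 and 0.0665 at 4. At 5 steps it was 0.0332, with section B already at -0.0247. Adjacent Medulla spots differed by 0.0974, 0.0781, 0.0789 and 0.0738 on average in sections A to D, and spots 5 steps apart by 0.140, 0.124, 0.102 and 0.0970. In the T zone the corresponding differences were 0.0342, 0.0339, 0.0449 and 0.0408 for adjacent spots, close to the 0.0396, 0.0393, 0.0474 and 0.0434 at 5 steps. At long range section D stood apart. Its Medulla r was 0.192 for spots 15 steps apart, against -0.0122 in A, 0.0829 in B and 0.0210 in C.

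Pooled over regions and with region means subtracted, depth and mitochondrial percent were clumped more than the score. Without that subtraction, r of log10 UMIs over all adjacent pairs was 0.743, 0.630, 0.738 and 0.695 in sections A to D. In section B this was below the 0.733 of the score. After subtraction of region means, the adjacent-pair r of the score minus that of log10 UMIs was -0.0949, -0.0991, -0.222 and -0.156 in sections A to D, a mean of -0.143 ± 0.0594 with 0 of 4 sections above 0, and 1 of 4 in the lower piece. Within Medulla alone the r of log10 UMIs was 0.482, 0.532, 0.613 and 0.533, so in sections A and B it was not above that of the score. Against percent of mitochondrial counts the difference was -0.250 ± 0.0454, and against percent of ribosomal counts it was -0.136 ± 0.0607. Against Mo_GC_vs_Mem it was -0.0139 ± 0.0877 with 2 of 4 sections above 0 (exact permutation p = 0.75, adjusted to 0.75). The score was more clumped than each of the 4 scores named for stromal cells (Mo_CD34_SC, Mo_Inmt_SC, Mo_Nr4a1_SC and Mo_Nr4a1Inmt_SC) in 4 of 4 sections. Those differences ran from 0.179 ± 0.0437 for Mo_CD34_SC to 0.310 ± 0.0124 for Mo_Nr4a1_SC.

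**Figure D2:**
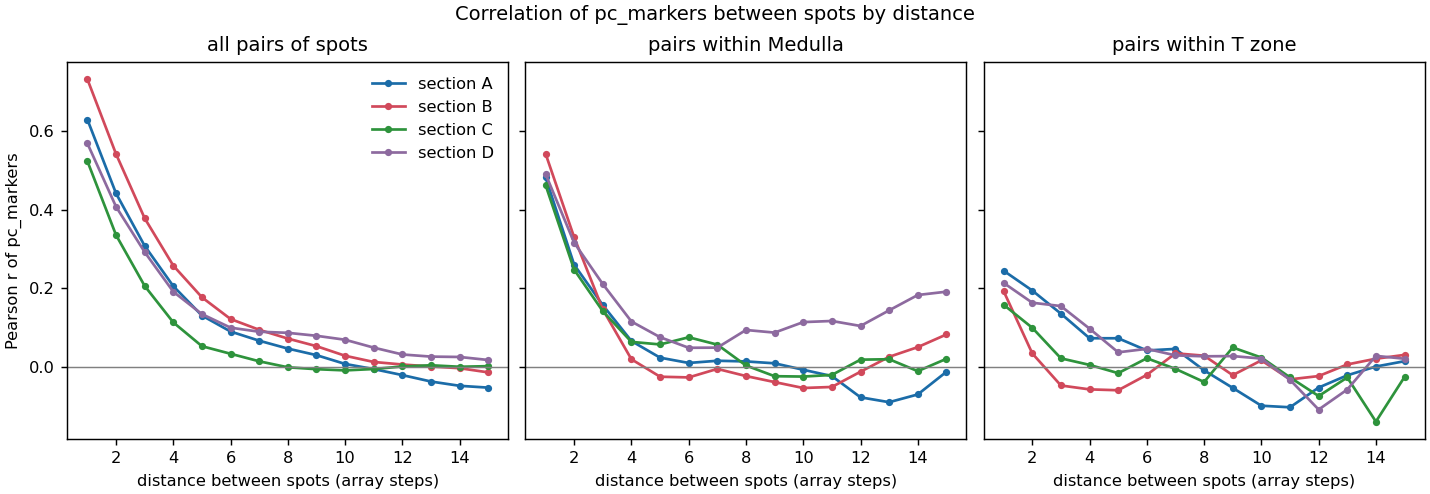
Pearson r of pc_markers between spots 1 to 15 steps apart, for all pairs, for pairs within Medulla and for pairs within the T zone, with 1 line per section. Within Medulla r starts near 0.5 and is close to 0 by 5 steps, within the T zone it starts near 0.2, and the Medulla line of section D is high again at 15 steps.

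The highest 5% of spots were 83, 94, 93 and 95 in sections A to D. Their lower limits differed with the section, at 0.426, 0.467, 0.335 and 0.336. The limits fell in a continuous range. In section A, for example, the highest spot below the limit had 0.425 and the lowest above it 0.427. These spots were chosen by the score, so their place is a description and was not tested.

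Nearly all of them lay on the medulla side. It held 82 of 83, 93 of 94, 88 of 93 and 92 of 95 top spots in sections A to D. As shares these were 98.8%, 98.9%, 94.6% and 96.8%, while the medulla side made up 30.8%, 28.9%, 33.6% and 36.5% of all spots. GC_Medulla Border, the strip between germinal centre and medulla, was small but rich in them. Of its spots 29.0%, 20.3%, 23.7% and 16.0% were top spots, against 15.3%, 16.7%, 13.1% and 13.0% of Medulla spots. In the upper piece top spots were 3 of 14, 2 of 18, 1 of 15 and 0 of 25 border spots. Of Medulla spots there they were 34 of 287, 29 of 263, 30 of 346 and 18 of 370. In the lower piece they were 6 of 17, 11 of 46, 13 of 44 and 13 of 56 border spots. Of Medulla spots there they were 39 of 191, 51 of 216, 44 of 219 and 61 of 238. The border share was below that of Medulla in the upper piece of C and D and the lower piece of D. The part of the piece in this was not tested. Over all sections T zone, B zone and light zone held 0 of 365 top spots, out of 1834, 1294 and 414 spots.

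The 10 top spots off the medulla side lay mostly in the dark zone. Of its 539 spots 8 were top spots, 5 of them 1 step from the medulla side and 3 of them 3 steps away. The highest was a spot of section B with 0.488, 1 step from the medulla side. In section A the only such spot had 0.461 and lay 3 steps away. The remaining pair were a GC_B Border spot of section C, 6 steps away with 0.340, and a GC_T Border spot of section D, 2 steps away with 0.345. Each of these lay just above the limit of its section.

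Top spots touched each other. Among the neighbours of a top spot 36.6%, 42.1%, 37.3% and 36.9% were top spots themselves in sections A to D. The definition gives 5% of all spots, but on the medulla side, where nearly all top spots lay, 355 of 2365 spots were top spots. Part of the excess over 5% thus goes with the region. They formed 23, 21, 29 and 28 separate clumps. The largest clump held 26 spots in A and B and 14 in C and D, and 11, 11, 14 and 13 top spots stood alone. Clumps of 5 or more spots held 60.2%, 79.8%, 62.4% and 56.8% of the top spots. The more shallowly read sections C and D had more and smaller clumps than A and B, and the part of depth in this was not tested.

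The lower piece of tissue held more of the top spots than its share of the medulla side. It had 54.2%, 67.0%, 64.5% and 80.0% of the top spots of sections A to D and 40.9%, 48.3%, 42.1% and 42.7% of their medulla side spots. The mean score of Medulla was higher in the lower than in the upper piece in 4 of 4 sections, by 0.0459, 0.0508, 0.0443 and 0.0780. In the T zone the same difference was 0.00386, 0.00374, 0.00384 and 0.0162. The gap between Medulla and T zone was accordingly 0.103 ± 0.0370 in the lower piece and 0.0549 ± 0.0398 in the upper piece. Median UMIs of Medulla were 3698, 6054, 1834 and 2242.5 in the lower piece and 4057, 8107, 2424.5 and 2805 in the upper. The part of depth in the gap between pieces was not tested.

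Top spots were not gathered at the rim of the medulla. Of the top spots on the medulla side 30.4% (26.9% to 35.9% over sections) touched a spot outside it, against 41.4% (39.3% to 43.1%) of all medulla side spots. Within 2 steps of a germinal centre lay 27.7% ± 5.07 of them, against 22.2% ± 4.29 of the medulla side. At the other end of the scale, the 365 lowest spots, also 5% of each section, were drawn from the germinal centre first. The dark zone gave 123 of them, the light zone 101, the B zone 54, GC_B Border 43 and Medulla 31. The T zone gave 9 although it was the second largest region, so it was poor in both extremes.

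Other readouts of the same spots set the top Medulla spots apart from the rest of Medulla. Their percent of ribosomal counts was lower in 4 of 4 sections, with a mean of 11.8% against 18.0%, a difference of -6.20 ± 0.908 percentage points. Their percent of mitochondrial counts was also lower in 4 of 4 sections, with 4.10% against 5.83%, a difference of -1.73 ± 0.408 points. They had more UMIs in 4 of 4 sections, with a difference of 2092, 2454, 1674 and 803.2 in sections A to D. In each case the adjusted p of the exact permutation test was 0.141. Percents and scores are drawn from the same counts of a spot, and the part of depth in these differences was not tested.

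The relation held over the whole of Medulla and not only at its top. When the Medulla spots of each section were divided into 3 equal groups by ribosomal percent, the score averaged 0.369 in the group with the lowest percent, 0.252 in the middle and 0.215 in the highest. The highest minus the lowest group was -0.183, -0.179, -0.117 and -0.140 in sections A to D. Spearman's rho over Medulla spots was -0.680, -0.738, -0.491 and -0.634. The same grouping by UMIs gave 0.242, 0.280 and 0.314 from the lowest to the highest group, a difference of 0.0725 ± 0.0303 in 4 of 4 sections. Grouping by mitochondrial percent gave 0.324, 0.271 and 0.242.

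The 4 stromal scores were each higher in top Medulla spots than in other Medulla spots in 4 of 4 sections. The largest of these differences was 0.0209 ± 0.00585, for Mo_Nr4a1_SC, and the smallest 0.00918 ± 0.00303, for Mo_Nr4a1Inmt_SC. Mo_GC_vs_Mem differed by -0.00508 ± 0.0111 and was higher in 1 of 4 sections (exact permutation p = 0.5, adjusted to 0.5). In the dark zone the pc_markers score went with Mo_CD34_SC, with a mean Spearman's rho of 0.732 ± 0.0514 over its spots. Mean rho with Mo_CD34_SC was also above 0 in every other region, from 0.173 in GC_Medulla Border to 0.453 in GC_T Border. In GC_Medulla Border it was -0.131 in section B and above 0 in the other sections. In the dark zone the score went against Mo_GC_vs_Mem, with rho of -0.775, -0.795, -0.590 and -0.681 in sections A to D. That rho was also negative in every section in the light zone, with a mean of -0.316, and in GC_B Border, with -0.267. In the other regions its sign differed between sections. Whether these scores share genes was not analysed here. Top Medulla spots also had more UMIs than other Medulla spots, and the part of depth in the differences of the other scores was not tested.

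**Figure D3:**
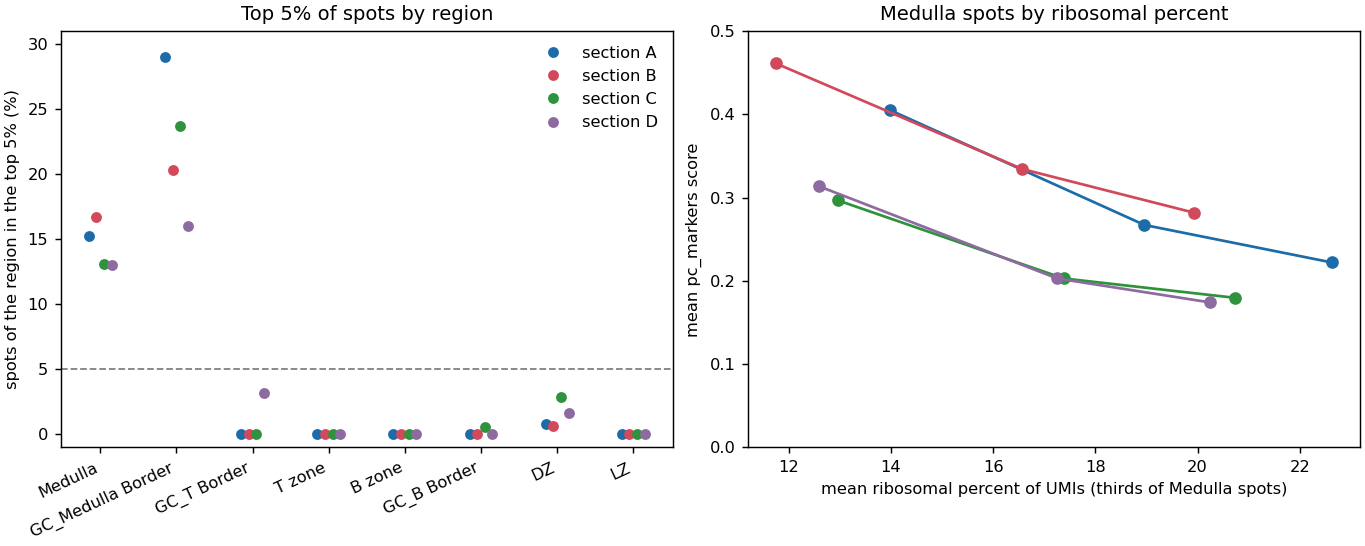
Left, the percent of each region's spots that belong to the top 5% of their section, with a dashed line at 5%; right, the mean pc_markers score of Medulla spots in 3 equal groups by percent of ribosomal counts, for sections A to D. GC_Medulla Border and Medulla stand above the dashed line in every section, and in every section the score is highest in the group with the lowest ribosomal percent.

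At the boundary with the T zone the medulla side was the higher in most comparisons. Over adjacent pairs with 1 spot on the medulla side and 1 in the T zone, the medulla side spot was higher by 0.0278, 0.0461, 0.0145 and 0.000964 in sections A to D. The mean was 0.0224 ± 0.0193 with 4 of 4 sections above 0, and 0.0144 without section B. Fitted on log10 UMIs, the residual gave 0.0151, the upper piece alone gave 0.0137, and these and percentile ranks left 3 of 4 sections above 0. In section D the medulla side spot was the higher in 48.2% of pairs. The step into the B zone was larger, at 0.0639, 0.0809, 0.0320 and 0.0177, and the T zone step minus the B zone step was -0.0262 ± 0.0106 with 0 of 4 sections above 0. In the upper piece alone the B zone step was above 0 in 3 of 4 sections, and the difference between the steps was above 0 in 1 of 4. Of the steps measured in 4 sections, that into the dark zone had the largest mean, at 0.0928 ± 0.0316. In section D the dark zone step was 0.0493, below 0.0629 for GC_B Border and 0.0849 for the light zone.

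The score also differed with distance inside the medulla. Among Medulla spots with the T zone as their nearest outside region, those 1 step from it had a mean of 0.256, 0.305, 0.200 and 0.192 in sections A to D. Those 4 steps from it had 0.327, 0.402, 0.259 and 0.256. The difference was 0.0727 ± 0.0170 with 4 of 4 sections above 0 over these 3 steps, while the step at the boundary is a difference over 1 step. It was larger in the lower piece, at 0.144. Medulla spots nearest to the B zone averaged 0.254 at 1 step and 0.354 at 4 steps. Over the medulla side as a whole, spots 4 steps inside exceeded those at its rim by 0.0575, 0.0827, 0.0431 and 0.0350, and by 0.112 on average in the lower piece.

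The deepest part of the medulla side was lower again. Spots 6 or more steps inside averaged 0.244, 0.311, 0.216 and 0.186 in sections A to D, and the difference from those 4 steps inside was -0.0971, -0.101, -0.0471 and -0.0661. They were 73 spots in all, 11 to 26 per section, nearly all in the upper piece, with 2.27% in the lower piece on average, and 48.6% of them lay at the edge of the tissue. Within the upper piece alone the difference was -0.0497, again with 0 of 4 sections above 0. Over Medulla as a whole, spots at the tissue edge differed from the rest by -0.00640 ± 0.0240, with 1 of 4 sections above 0 (exact permutation p = 0.625, adjusted to 0.647).

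Inside the T zone the course from 1 step to 5 or more steps differed in direction between sections. At 1 step from the medulla side the mean was 0.222, 0.250, 0.184 and 0.189 in sections A to D. At 3 steps it was 0.209, 0.226, 0.183 and 0.187, and at 6 steps 0.210, 0.233, 0.178 and 0.193. Spots at 1 step minus spots at 5 or more steps gave 0.0118, 0.0222, 0.00460 and -0.0138, a mean of 0.00621 ± 0.0151 with 3 of 4 sections above 0 (exact permutation p = 0.5, adjusted to 0.5). The mean was 0.0129 without section D and 0.000879 without section B. Median UMIs went from 5378 at 1 step to 7531 at 5 steps, and the same difference taken after a linear fit on log10 UMIs was -0.00465, of the opposite sign.

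Of the 2 T zone comparisons made, that over the first step had 1 direction in 4 sections. Spots adjacent to the medulla side exceeded those at 2 steps by 0.00815, 0.0217, 0.00751 and 0.00358. The mean of 0.0102 ± 0.00791 was 0.00641 without section B, and 0.00675 with 3 of 4 sections above 0 after the linear fit on log10 UMIs. It was 0.00439 with 3 of 4 sections above 0 in the upper piece and 0.0174 in the lower. In section D the T zone was higher far from the medulla side, at 0.202 at 5 steps and 0.244 at 8 steps, from few spots. The lower piece held 43.2% of these T zone spots at 1 step, 33.3% at 5 steps and 100% at 8 steps. The part of the piece in this rise was not tested.

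In the B zone the score was higher beside the medulla side than a few steps away. At 1 step from the medulla side it averaged 0.192, 0.219, 0.161 and 0.161 in sections A to D. At 3 to 4 steps the means were 0.153, 0.190, 0.134 and 0.137, lower in 4 of 4 sections. The difference was 0.0294 ± 0.00611, with 0.0167 in the upper and 0.0441 in the lower piece. Median UMIs were 6539 at 1 step and 7743 at 3 to 4 steps. After the linear fit on log10 UMIs the difference was 0.0250, again with 4 of 4 sections above 0. Percent of ribosomal counts went from 22.2 at 1 step to 23.8 at 4 steps, and its part in the course was not tested.

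Farther out the B zone was higher again in most sections. At 7 or more steps the means were 0.187, 0.186, 0.160 and 0.150. Relative to 3 to 4 steps this was 0.0337 higher in A, 0.0257 higher in C and 0.0136 higher in D, and -0.00389 in B. The mean was 0.0173 ± 0.0164 (exact permutation p = 0.25, adjusted to 0.269), and in the lower piece alone it was 0.00216 with 2 of 4 sections above 0. Of these far spots 57.3% lay at the edge of the tissue, against 31.5% at 3 to 4 steps, and their median UMIs were 10493 against 7743. B zone spots at the tissue edge exceeded the others by 0.0112 ± 0.00721 in 4 of 4 sections. After the linear fit on log10 UMIs the far difference was 0.0230 with 3 of 4 sections above 0, and the part of the tissue edge in it was not tested.

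The B zone course from 1 step to 5 or more steps was smaller than its first part. It was 0.0162, 0.0364, 0.00543 and 0.0149 in sections A to D, a mean of 0.0182 ± 0.0130 with 4 of 4 sections above 0 (exact permutation test, adjusted p = 0.156). It differed between the pieces, with 0.00131 in the upper piece and 0.0420 in the lower. It was 0.00971 with medians in place of means, 0.00934 with 3 of 4 sections above 0 after the linear fit on log10 UMIs, and 0.0120 over spots 2 or more steps from germinal centres and their borders. The T zone course minus the B zone course was -0.0120 ± 0.0124 with 0 of 4 sections above 0 (exact permutation test, adjusted p = 0.156). It was -0.00494 with medians and 1 of 4 sections above 0, and above 0 in 1 of 4 over spots 2 or more steps from germinal centres and their borders. It was -0.00646 without section D, -0.0365 in the lower piece, and 0.00488 in the upper piece with 4 of 4 sections above 0. The direction of the difference between the courses was thus opposite in the 2 pieces, and the gap between pieces was not tested.

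**Figure D4:**
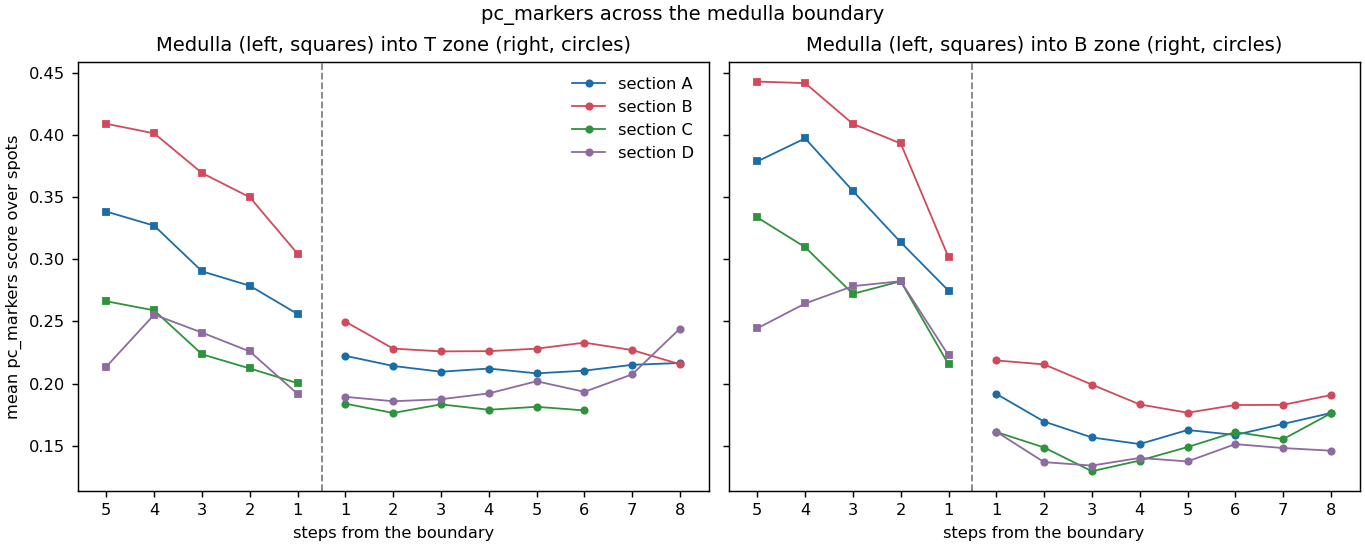
Mean pc_markers score by steps from the boundary, for Medulla spots nearest to the T zone (left panel) or the B zone (right panel) as squares on the left of each panel and for the T zone or B zone as circles on the right, with 1 line per section and points of at least 3 spots. The squares are lowest beside the boundary and higher 4 steps inside. The T zone circles share no direction over the whole range, and the B zone circles are lowest between 3 and 5 steps.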

How the data were processed

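All values came from a deposited table with 1 line per spot. Its total count per spot and its number of genes detected are raw counts as the authors deposited them. Its percent of mitochondrial and of ribosomal counts is a deposited column, and pc_markers and 5 others are scores as deposited by the authors, whose scale and gene lists the sources used here do not state. Tools named in the submitters' processing notes are Seurat 4.2.1 and Space Ranger 1.3.1, and the build is mm10. The sources used here do not state the spot filter.

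Every deposited spot was used, with 13, 4, 69 and 48 under 1000 UMIs in sections A to D, and no value was normalized further. Regions, array rows and array columns were used as deposited, and 4 alignment files were not used here. The tissue edge is any spot with fewer than 6 neighbours in the table. Analyses ran in Python 3.11.15 with numpy 2.4.6, pandas 2.3.3 and scipy 1.17.1. Benjamini-Hochberg adjustment was applied within 3 families, of 5 tests listed at the start, 29 added after first looks at the data and 9 comparing other readouts of top Medulla spots. The functions were tested on simulated scores with planted differences at the real positions. The rule for naming was to name this score, every region and, for comparison, the other deposited columns, since no single genes were held. The score and these tests were chosen with earlier results of these data known. The values were recomputed with a minimum of 1000 UMIs, the residual after a linear fit on log10 UMIs, percentile ranks, each tissue piece alone, each section left out, medians or the interquartile range, other cuts for top spots, pairs 2 steps apart and other definitions of near and far.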

Additional observations from a re-analysis of the deposited data

Results flagged for a closer look

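Of 72 values given for each of the 4 sections, 3 had a section far from the others by Dixon's test, which chance alone marks in about 1 of 20 groups of this size. The share of a top spot's neighbours that were also top spots was 42.1% in section B, and 36.6% to 37.3% in the other sections. The mean score of the T zone in the lower piece minus that in the upper piece was 0.0162 in section D, and 0.00374 to 0.00386 in the others. The SD of the score over light zone spots was 0.0402 in section B, and 0.0343 to 0.0352 in the others.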

How the results depend on the processing

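With all 4 sections kept, 131 alternatives were computed for 22 results. Of these 119 kept the direction of their mean, for ranks on another scale. For results without a test they also moved by less than the SD over sections. No such limit was set for tested results, and some moved by more. The B zone course, for example, was 0.0182 ± 0.0130 in the main setting, 0.00131 in the upper piece and 0.0420 in the lower. The count of agreeing sections was not always kept, as given beside the results. The T zone course turned to -0.00465 after a linear fit on log10 UMIs, and the T zone course minus the B zone course turned to 0.00488 in the upper piece; the cause was not tested. At pairs 2 steps apart the r over all pairs was 0.432 and over same-region pairs 0.257. The same-region r was 0.332 with ranks, 0.376 in the lower piece and 0.505 among spots in the middle quartiles of UMIs, an alternative chosen after seeing the data. The excess of top spots on the medulla side was 59.9 percentage points for the top 10% against 64.8 for the top 5%. The share of neighbours that were top spots was 40.9% in the upper and 32.0% in the lower piece, 22.1% for the top 2% and 50.3% for the top 10%.

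Leaving out each section in turn turned no mean. The ranges were 0.0608 to 0.0709 for the Medulla minus T zone SD, 29.8% to 39.3% for the variance between regions, 0.574 to 0.644 and 0.426 to 0.459 for r over all and same-region pairs, and -0.159 to -0.117 for r minus that of log10 UMIs. They were 63.1 to 66.3 points for the top share, 36.9% to 38.8% for top neighbours, 0.000879 to 0.0129 for the T zone course, 0.0122 to 0.0225 for the B zone course and -0.0157 to -0.00646 for their difference. The comparison of the deepest medulla side could not be formed in the lower piece. No paired analysis was possible because there was only 1 group of sections, so replicate numbers had no second group to pair with; the comparisons themselves were differences within a section. With 4 sections no test could pass, and 13, 4, 69 and 48 spots of sections A to D had under 1000 UMIs.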
